A study of Mus musculus with 71 samples.

Results

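The data described here are the 12 arrays of whole brain from undisturbed C57BL/6J mice, killed at 4 times of day, among 71 arrays in all. They were chosen by their labels: strain C57BL/6J, control condition, and a time of sacrifice of ZT0, ZT6, ZT12 or ZT18, with 3 arrays at each time. ZT counts hours from lights on, and lights went off at ZT12. The mice were males of 12 to 13 weeks with free access to food and water, and they were kept as home-cage controls. Each array carried a pool of equal amounts of RNA from 3 mice, so a group stood for 9 mice. The same 4 times were measured in undisturbed AKR/J and DBA/2J mice (12 arrays each) and in C57BL/6J mice kept awake for the 6 h before sacrifice (12 arrays), and these serve as comparisons. C57BL/6J, AKR/J and DBA/2J are inbred strains, and the labels name no transgene or drug in any group. The series asked how sleep loss changes brain RNA around the clock, and the undisturbed arrays are its baseline of time of day. Every value below is a log2 signal of a probe set, the short oligonucleotides that together report 1 transcript, so a difference of 1 is a doubling.

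Mammalian cells keep time with a transcriptional loop. ARNTL (BMAL1) and CLOCK bind E-box sequences and switch on their own repressors, the Period and Cryptochrome genes, together with the nuclear receptors NR1D1 and NR1D2, which in turn repress Arntl. Output genes such as Dbp and Nfil3 carry the rhythm to other genes. Mice are night-active, so in undisturbed brain the time of day also carries the alternation of sleep and waking, with its changes in neuronal activity, brain temperature and feeding. No sleep record was used here, so time of day and the sleep, activity and feeding that go with it cannot be told apart. In RNA of whole brain, fewer cells of a type and less RNA per cell cannot be told apart either.

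The 12 arrays were alike in their overall signal. Their medians ran from 5.66 to 5.68, and any pair of them correlated at 0.994 or more. Marker genes of neurons, astrocytes and oligodendrocytes were all above the median signal, as the label of whole brain would have it, while all 10 measured markers of pineal gland and photoreceptors were below it. Growth hormone (Gh), a pituitary transcript, ran from 9.71 to 13.43 over the 12 arrays, and none of the 7 measured pituitary markers was called by time, where 2.07% of all genes were. Their median range, from the lowest to the highest of the 4 means, was 0.97, against 0.15 for all genes. The log2 of their summed signal ran from 10.17 to 13.89 at ZT18 alone. The lack of calls therefore does not show that pituitary signal was even over time. One array stood apart on the control probe sets (ZT0 replicate 3, 1 of 6 such arrays in the series): its DapX3 control read 7.47, against 8.06 to 8.31 on the other 11. Another, ZT18 replicate 2, carried genes of nasal and olfactory epithelium. In it Bpifb9b (probe set 1433967_at) read 8.40, against 3.29 to 3.69 on the other 11 arrays, and Omp, the olfactory marker protein, read 8.03 against 6.17 and 6.23 at the same time. The 15 genes of that list were chosen after the data were seen. The log2 of their summed signal was 9.14 to 9.60 from ZT0 to ZT12 and 9.41 to 11.71 at ZT18. On their brightest probe sets Cbr2, S100a5 and Wfdc18 of this list were called by time, and none of the 15 was without that array. Bpifb9b and Stoml3 were called on another probe set. Counts below are also given without these arrays where leaving them out changes a count much.

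Of 45037 probe sets tested, 743 differed between the 4 times, which is 1.65% at an adjusted p under 0.05. They stood for 581 named genes. The test was limma's moderated F test with the Benjamini-Hochberg adjustment, and the p-values below come from it unless a pair of times is named. Among the called probe sets the median range, from the lowest to the highest of the 4 means, was 0.40 log2 units, against 0.16 over all probe sets tested. A range of at least 1 was reached by 21 of them. The standard error of a difference between 2 means had a median of 0.096. With samples 6 h apart, the peak is the highest of the 4 sampled times and the true peak can lie between them.

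ZT18 and ZT6 held the most peaks in the fit of all arrays, though ZT12 passed ZT6 without ZT6 replicate 2 and in a fit of the 12 arrays alone. The highest mean was at ZT18 for 242 called probe sets (0.537% of all tested), at ZT6 for 236 (0.524%), at ZT12 for 153 (0.34%) and at ZT0 for 112 (0.249%). The lowest mean was at ZT18 for 223, at ZT12 for 221, at ZT6 for 185 and at ZT0 for 114. The most frequent courses were a peak at ZT6 with a trough at ZT18 (140 probe sets) and a peak at ZT18 with a trough at ZT12 (139). For 290 called probe sets, 39% of them, the 3 arrays at the peak were above all arrays of the other times, which held for 4.78% of all probe sets tested. Without ZT18 replicate 2 the F test called 479 probe sets, 462 of them among the 743, and the peaks at ZT0, ZT6, ZT12 and ZT18 numbered 83, 132, 125 and 139. Without ZT6 replicate 2 it called 489, with 83, 114, 124 and 168 peaks at these times, and without ZT0 replicate 3 it called 656. In a fit of the 12 arrays alone, which has fewer residual degrees of freedom than the fit of all 71, it called 177, with 32, 35, 43 and 67 peaks. Of the 59 called probe sets that the naming rule selects and that were refitted in this way, those of Clock, Cry1, Usp2, Tspan4, Lonrf3, Hnrnpdl, Clk1, Mag, Cd93, Slc2a1, Ppp1r3c, Insig1, Tsc22d3, Gabra2, Cycs, Etnppl, Bpifb9b, Cbr2 and Stoml3 were not called in that fit, with adjusted p-values from 0.0519 (Tspan4) upward.

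In the fit of all arrays the number of called probe sets was highest between mid-light and mid-dark. That order turned without ZT18 replicate 2, which left 198 for ZT18 against ZT6 and 208 for ZT18 against ZT12. The count for ZT18 against ZT6 was also 186 without ZT6 replicate 2 and 318 without ZT6 replicate 3. Both are below the 379 for ZT18 against ZT12 with all arrays, which was not recounted without these. Between ZT18 and ZT6, 564 probe sets differed (1.25%), 273 higher (0.606%) and 291 lower (0.646%) at ZT18. There were 379 called between ZT12 and ZT18 (0.842%), 220 of them higher (0.488%) and 159 lower (0.353%) at ZT18. From ZT0 to ZT6, 164 differed (0.364%), 81 higher (0.18%) and 83 lower (0.184%) at ZT6. Between ZT0 and ZT12 149 differed (0.331%), 72 higher (0.16%) and 77 lower (0.171%) at ZT12. From ZT6 to ZT12 there were 96 (0.213%), 40 higher (0.0888%) and 56 lower (0.124%) at ZT12. Between ZT18 and ZT0 there were 30 (0.0666%), 8 higher (0.0178%) and 22 lower (0.0488%) at ZT0. These counts come from limma's test of each pair and rest on 3 arrays a time. Leaving out 1 array moved most of them by over 1.5 times: the range was 186 to 425 for ZT18 against ZT6, lowest without ZT6 replicate 2, and 208 to 229 for ZT18 against ZT12, lowest without ZT18 replicate 2. It was 70 to 142 for ZT6 against ZT0, lowest without ZT6 replicate 3, and 22 to 108 for ZT12 against ZT6, lowest without ZT12 replicate 1. It was 86 to 174 for ZT12 against ZT0 and 16 to 47 for ZT0 against ZT18, each lowest without ZT0 replicate 3. A move of that size followed for ZT18 against ZT12 from each of the 6 arrays left out, for ZT12 against ZT6 from all but ZT6 replicate 1, and for ZT6 against ZT0 from ZT0 replicates 1 and 3 and ZT6 replicates 2 and 3. For ZT18 against ZT6 it followed from replicates 2 and 3 of both times, for ZT12 against ZT0 from ZT0 replicate 3 and ZT12 replicate 3, and for ZT0 against ZT18 from ZT0 replicate 3 and ZT18 replicate 1.

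**Figure D1:**
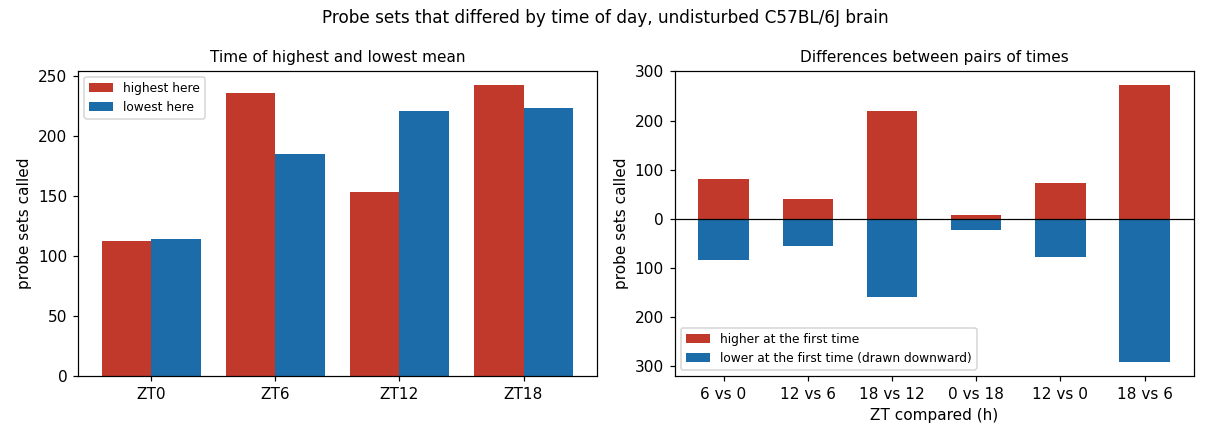
Left, number of called probe sets (vertical axis) whose highest (red) or lowest (blue) mean lay at each of the 4 times. Right, number called between each pair of times, higher (red, upward) or lower (blue, downward) at the time named first. ZT18 against ZT6 gave 564 and ZT0 against ZT18 gave 30.

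In the positive limb of the clock, Arntl was highest at light onset, and Clock was high at ZT0 and ZT6. Of the 7 measured clock activators and receptors, 4 were called, where 2.07% of 18193 genes were when each gene was taken on its brightest probe set. The median range of the list was 0.32, against 0.15 for all genes. Arntl, the partner of CLOCK, read 8.25, 8.20 and 8.20 at ZT0, 7.91, 8.06 and 8.05 at ZT6, 7.64, 7.63 and 7.49 at ZT12, and 7.69, 7.70 and 7.84 at ZT18 (probe set 1425099_a_at). Its 4 groups did not overlap, with ZT0 highest and ZT12 lowest, a range of 0.63 log2 units (1.55-fold, SE 0.063, adjusted p = 3.91e-10). Clock read 8.83, 8.80 and 9.10 at ZT0, 8.82, 8.97 and 8.85 at ZT6, 8.46, 8.66 and 8.69 at ZT12, and 8.58, 8.53 and 8.76 at ZT18. Its arrays at ZT0 and ZT6 lay above those at ZT12 and ZT18, with a range of 0.31 log2 units (1.24-fold, SE 0.079, adjusted p = 0.0121), and without ZT0 replicate 3 the adjusted p was 0.223. The means at ZT0 and ZT6, 8.91 and 8.88, were not told apart by limma's test of that pair (adjusted p = 0.935). No other pair of times passed that test for Clock, with an adjusted p of 0.0681 for ZT12 against ZT0 and 0.0872 for ZT18 against ZT6. Of the ZT0 arrays only replicate 3 lay above the ZT6 mean.

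The REV-ERB receptors, which repress Arntl, ran the other way. Nr1d1 read 7.17, 7.08 and 6.98 at ZT0, 7.61, 7.60 and 7.80 at ZT6, 7.68, 7.68 and 8.0 at ZT12, and 7.07, 7.17 and 7.41 at ZT18. Both groups of ZT6 and ZT12 lay above both of ZT18 and ZT0, and the range was 0.71 log2 units (1.64-fold, SE 0.12, adjusted p = 9.07e-05). Nr1d2 read 10.56, 10.69 and 10.54 at ZT0, 11.06, 10.93 and 11.10 at ZT6, 11.06, 11.18 and 11.06 at ZT12, and 11.11, 10.99 and 11.02 at ZT18. Only its ZT0 arrays stood apart, below the rest, and the range was 0.50 log2 units (1.42-fold, SE 0.064, adjusted p = 2.34e-07). The remaining members, Npas2, Rora and Rorb, did not pass the test, with ranges of 0.27 (adjusted p = 0.081), 0.19 (adjusted p = 0.237) and 0.32 (adjusted p = 0.598).

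The called repressors peaked at light offset or in mid-dark. Of 11 measured repressors and modifiers 4 were called, beside 2.07% of all genes. Of these 4, 2 had a peak at ZT12 (0.418% of all genes) and 2 at ZT18 (0.709%), and the list's median range was 0.21. Ciart, also known as Chrono, a repressor of CLOCK and ARNTL, had the widest range of them. It read 6.48, 6.57 and 6.53 at ZT0, 7.18, 6.82 and 6.94 at ZT6, 7.73, 7.61 and 7.71 at ZT12, and 7.00, 6.97 and 6.67 at ZT18 (probe set 1435188_at), so that the ZT12 arrays were above and the ZT0 arrays below all others, with a range of 1.16 log2 units (2.23-fold, SE 0.10, adjusted p = 3.39e-11). Per3 on its brightest probe set read 6.81, 6.86 and 6.91 at ZT0, 6.95, 7.01 and 7.20 at ZT6, 7.27, 7.46 and 7.29 at ZT12, and 7.32, 7.18 and 7.20 at ZT18. The ZT0 arrays were lowest and the other groups overlapped, with a range of 0.48 log2 units (1.4-fold, SE 0.10, adjusted p = 0.0121), which became an adjusted p of 0.058 without ZT12 replicate 2. Another Per3 probe set, 1458176_at, had 4 groups that did not overlap, also highest at ZT12, and a range of 0.73 log2 units (1.66-fold, SE 0.10, adjusted p = 3.68e-05).

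Per2 and Cry1 were lowest in mid-light. Per2 read 6.79, 6.90 and 6.98 at ZT0, 6.62, 6.47 and 6.61 at ZT6, 7.02, 7.19 and 7.24 at ZT12, and 7.59, 7.50 and 7.52 at ZT18 (probe set 1417602_at). The order from ZT6 through ZT0 and ZT12 to ZT18 was without overlap, and the range was 0.97 log2 units (1.96-fold, SE 0.10, adjusted p = 9.68e-09). The Per2 probe set 1457350_at, of smaller p, gave 1.065 log2 units (2.09-fold, SE 0.105, adjusted p = 3.58e-10). On it only the ZT6 arrays stood apart, below the rest, while ZT0, ZT12 and ZT18 overlapped. Cry1 read 7.68, 7.61 and 7.45 at ZT0, 7.20, 6.89 and 7.34 at ZT6, 7.52, 7.65 and 7.49 at ZT12, and 7.61, 7.80 and 7.80 at ZT18. Its ZT6 arrays lay below all others while the remaining times overlapped, and the range was 0.59 log2 units (1.51-fold, SE 0.090, adjusted p = 9.07e-05). Per1, Cry2, Bhlhe40, Bhlhe41, Csnk1d, Csnk1e and Fbxl21 did not pass the test: their ranges ran from 0.07 for Cry2 to 0.33 for Per1.

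Some of these genes carry the E-box CACGTG or the D-box, the site bound by DBP and NFIL3, just before their start. The sequences below are the 250 bases before the RefSeq start (GRCm38.p6), 5′ to 3′ on the gene's strand, shown because these genes mark ZT12 and ZT18 in the clock. Capitals mark CACGTG in Ciart and Cry1, and the D-box TTATGTAA in Per3.
Ciart (chr3:95882229-95882478, minus strand): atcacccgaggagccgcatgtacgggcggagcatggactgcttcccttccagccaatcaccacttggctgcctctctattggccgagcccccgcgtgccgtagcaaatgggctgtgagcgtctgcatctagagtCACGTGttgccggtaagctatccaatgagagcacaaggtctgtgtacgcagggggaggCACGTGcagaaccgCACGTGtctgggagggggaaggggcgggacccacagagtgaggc
Cry1 (chr10:85185055-85185304, minus strand): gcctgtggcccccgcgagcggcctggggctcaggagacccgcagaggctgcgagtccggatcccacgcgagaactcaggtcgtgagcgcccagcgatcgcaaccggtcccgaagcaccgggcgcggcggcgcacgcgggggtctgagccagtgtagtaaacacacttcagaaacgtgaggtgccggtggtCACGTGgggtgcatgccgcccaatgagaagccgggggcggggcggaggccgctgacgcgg
Per3 (chr4:151044666-151044915, minus strand): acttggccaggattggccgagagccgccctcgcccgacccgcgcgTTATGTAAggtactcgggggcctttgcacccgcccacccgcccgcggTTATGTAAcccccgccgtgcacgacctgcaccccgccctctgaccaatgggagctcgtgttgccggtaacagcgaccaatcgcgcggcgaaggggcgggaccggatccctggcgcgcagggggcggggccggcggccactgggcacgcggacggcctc
Ciart held 3 E-boxes, which began 116, 58 and 44 bases before the start, Cry1 held 1 at 60 bases, and Per3 held 2 D-boxes at 205 and 158 bases.

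Clock output genes differed in their peak times. Of 12 measured, 7 were called, beside 2.07% of all genes. Of these 7, 3 had a peak at ZT12 (0.418% of all genes), 2 at ZT0 (0.33%) and 2 at ZT18 (0.709%). The list's median range was 0.36. Dbp, a transcription factor directly driven by CLOCK and ARNTL, read 7.97, 8.22 and 7.89 at ZT0, 8.83, 8.77 and 8.81 at ZT6, 9.47, 9.42 and 9.51 at ZT12, and 8.61, 8.66 and 8.69 at ZT18 (probe set 1418174_at). Its 4 groups did not overlap, from ZT0 through ZT18 and ZT6 to ZT12, with a range of 1.44 log2 units (2.7-fold, SE 0.091, adjusted p = 5.03e-16). The other Dbp probe set, 1438211_s_at, gave 1.48 log2 units (2.78-fold, SE 0.095, adjusted p = 6.58e-16). Nfil3, which competes with DBP for the D-box, read 6.59, 6.64 and 6.49 at ZT0, 6.30, 6.43 and 6.26 at ZT6, 5.95, 6.09 and 5.75 at ZT12, and 6.32, 6.31 and 6.16 at ZT18. It was highest at ZT0 and lowest at ZT12 with neither group overlapping the rest, over a range of 0.64 log2 units (1.56-fold, SE 0.088, adjusted p = 2.29e-05).

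The other called outputs had ranges from 0.36 to 0.68. Usp2, a deubiquitinating enzyme, peaked at ZT12 with a range of 0.36 (adjusted p = 0.0105), and lost its call without ZT12 replicate 1 (adjusted p = 0.1). Tspan4, a tetraspanin, peaked there with a range of 0.45 (adjusted p = 0.00229). Klf10, a zinc finger factor, peaked at ZT0 with 0.55 (adjusted p = 0.00243) and had an adjusted p of 0.0513 without ZT0 replicate 2. Cys1, which encodes the cilia protein cystin, read 6.95, 6.93 and 6.78 at ZT0, 6.60, 6.40 and 6.60 at ZT6, 6.80, 6.67 and 6.69 at ZT12, and 7.14, 7.35 and 7.17 at ZT18, highest at ZT18 and lowest at ZT6 with no overlap of either group and a range of 0.68 log2 units (1.61-fold, SE 0.078, adjusted p = 1.2e-07). Lonrf3 peaked at ZT18 with 0.36 (adjusted p = 0.00372), and without ZT18 replicate 2 the adjusted p was 0.0933. Tef, Hlf, Nampt, Wee1 and Leo1 did not pass, with ranges from 0.12 (Wee1) to 0.20 (Hlf).

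**Figure D2:**
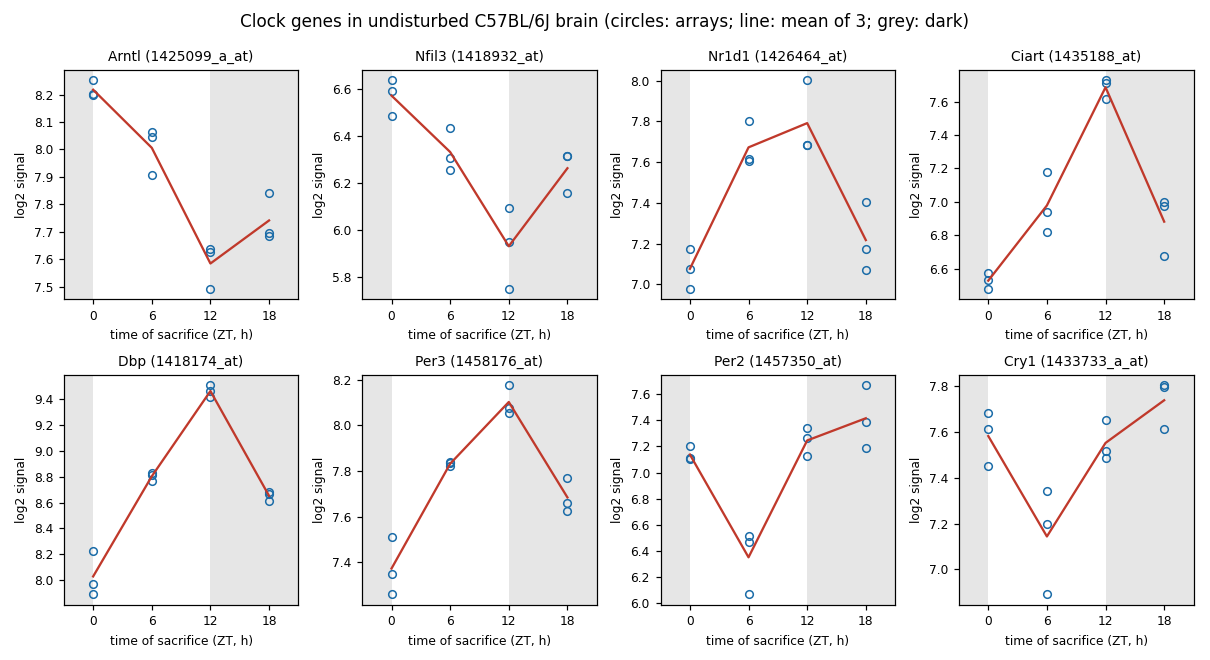
Log2 signal (vertical axis) of 8 clock genes against time of sacrifice (horizontal axis, ZT in hours, with the dark phase in grey). Circles are the 3 arrays at each time and the line joins their means. Each gene is drawn on its probe set of smallest p, which for Per2 is 1457350_at. Arntl and Nfil3 were highest at ZT0, Nr1d1, Ciart, Dbp and Per3 at ZT12, and Per2 and Cry1 at ZT18.

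The called chaperones of the endoplasmic reticulum, which fold secreted and membrane proteins, were highest in mid-dark. Of 25 measured genes of this list 11 were called, and all 11 peaked at ZT18, where 0.709% of all genes were called with a peak at that time. The list's median range was 0.24, against 0.15 for all genes. Hspa5, the main chaperone of the compartment (BiP), read 11.20, 11.08 and 11.02 at ZT0, 10.98, 11.01 and 11.04 at ZT6, 10.78, 10.88 and 10.83 at ZT12, and 11.77, 11.67 and 11.61 at ZT18 (probe set 1416064_a_at). The ZT18 arrays lay above and the ZT12 arrays below all others, with a range of 0.86 log2 units (1.81-fold, SE 0.073, adjusted p = 5.6e-12). Manf, a secreted protective factor kept in the compartment, read 9.87, 9.74 and 9.72 at ZT0, 9.53, 9.42 and 9.54 at ZT6, 9.63, 9.49 and 9.64 at ZT12, and 10.28, 10.25 and 10.25 at ZT18. Its ZT18 arrays were highest, its ZT0 arrays next, and both stood clear of ZT6 and ZT12, with a range of 0.76 log2 units (1.7-fold, SE 0.078, adjusted p = 8.89e-10).

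Further members peaked at ZT18 too. Creld2, a disulfide isomerase-like protein, read 7.30, 7.24 and 7.11 at ZT0, 7.14, 7.17 and 7.12 at ZT6, 7.10, 7.03 and 7.11 at ZT12, and 7.78, 7.94 and 7.85 at ZT18. The ZT18 arrays stood above the overlapping other times, with a range of 0.78 log2 units (1.71-fold, SE 0.085, adjusted p = 2.01e-09). Xbp1, the transcription factor spliced during endoplasmic reticulum stress, had a range of 0.59 log2 units (1.51-fold, SE 0.080, adjusted p = 8.85e-07) and the same separation of ZT18. Pdia6, Sdf2l1, Dnajc3, Calr, Dnajb11, Sel1l and Herpud1 were the other called members, with ranges from 0.28 (Herpud1) to 0.69 (Sdf2l1). Without ZT18 replicate 2, 7 were called, all with a peak at ZT18, and Sdf2l1, Dnajb11, Herpud1 and Sel1l were not. Without ZT0 replicate 3 there were 10, and Sel1l was not.

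The endoplasmic reticulum stress element, CCAAT and CCACG with any 9 bases between them, is bound by ATF6 and XBP1. It is shown in capitals, on whichever strand it lay, in the 250 bases before the start of the 2 genes of the list described first that hold it (GRCm38.p6, 5′ to 3′).
Hspa5 (chr2:34771840-34772089, plus strand): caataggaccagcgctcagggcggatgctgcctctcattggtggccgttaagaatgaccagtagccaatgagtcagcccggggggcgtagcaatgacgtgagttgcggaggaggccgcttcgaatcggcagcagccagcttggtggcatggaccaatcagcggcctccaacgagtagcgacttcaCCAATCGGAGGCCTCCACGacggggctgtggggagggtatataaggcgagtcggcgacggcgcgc
Creld2 (chr15:88819396-88819645, plus strand): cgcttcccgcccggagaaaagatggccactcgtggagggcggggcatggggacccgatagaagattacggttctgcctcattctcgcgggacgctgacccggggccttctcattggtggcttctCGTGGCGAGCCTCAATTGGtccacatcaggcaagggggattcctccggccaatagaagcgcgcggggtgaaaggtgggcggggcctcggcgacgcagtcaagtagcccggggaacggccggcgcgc
The element began 65 bases before the start of Hspa5 and 126 before that of Creld2. It was found before 6 of the 163 called genes that peaked at ZT18 and have a promoter sequence (3.68%): Calr, Creld2, Dnajc3, Hsp90b1, Hspa5 and Pdia6. Over all 14452 genes with a sequence it was found in 0.131%. Hsp90b1, the chaperone GRP94, was called on probe set 1438040_a_at and not on its brightest one. All 6 belong to the endoplasmic reticulum list, of which 8 of 22 members with a sequence held it.

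The called heat shock proteins of the cytosol were also highest at ZT18. Of 24 measured, 10 were called, beside 2.07% of all genes. All 10 had a peak at ZT18 (0.709% of all genes) and 9 had a trough at ZT12 (0.649% of all genes). The list's median range was 0.26. Hspa1b, the inducible Hsp70, read 8.73, 8.60 and 8.04 at ZT0, 8.10, 8.20 and 7.98 at ZT6, 7.96, 8.05 and 7.94 at ZT12, and 9.56, 9.57 and 9.45 at ZT18 on its brightest probe set (1452318_a_at). The ZT18 arrays lay above all others, with a range of 1.54 log2 units (2.91-fold, SE 0.23, adjusted p = 1.13e-05). The probe set 1427127_x_at gave 1.77 log2 units (3.41-fold, SE 0.22, adjusted p = 4.63e-07). Hspa1a and Hspa1b are near-identical copies, so the signal can come from either.

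Some small heat shock proteins and cochaperones were among the 10. Cryab, a small heat shock protein, read 10.72, 10.77 and 10.75 at ZT0, 10.52, 10.58 and 10.36 at ZT6, 10.46, 10.46 and 10.48 at ZT12, and 10.96, 11.02 and 10.91 at ZT18. ZT18 was highest, ZT0 next, and ZT6 and ZT12 overlapped below them, with a range of 0.50 log2 units (1.41-fold, SE 0.075, adjusted p = 7.09e-06). Chordc1 and Ahsa2, which assist Hsp90, had ranges of 0.58 (adjusted p = 2.41e-05) and 0.43 (adjusted p = 2.88e-05), and in both the ZT18 arrays were above all others. Hsph1, Hspb1, Dnaja1, Dnajb1, Dnajb5 and Ahsa1 completed the called members. Without ZT18 replicate 2 the count was 8, 7 of them with a peak at ZT18, and Hspb1 and Ahsa1 dropped out. Without ZT0 replicate 3 it was 11, all with a peak at ZT18. Hspa8, the constitutive Hsp70, had a range of 0.16 (adjusted p = 0.142) on its brightest probe set, while its probe set 1431182_at read 7.33, 6.92 and 6.77 at ZT0, 5.84, 5.84 and 5.61 at ZT6, 6.33, 5.89 and 6.18 at ZT12, and 6.88, 7.06 and 6.26 at ZT18, lowest at ZT6, with a range of 1.24 log2 units (2.37-fold, SE 0.16, adjusted p = 2.41e-07) and a peak at ZT0.

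Immediate early genes, which neurons switch on within minutes of activity, peaked at the end of the night or in mid-dark where they were called. Of 45 measured, 17 were called, beside 2.07% of all genes. Of these 17, 10 had a peak at ZT0 (0.33% of all genes) and 7 at ZT18 (0.709%). Their troughs were at ZT6 for 8 (0.511% of all genes) and at ZT12 for 9 (0.649%), and the list's median range was 0.33. Arc, which acts at dendritic synapses, read 8.80, 8.73 and 9.22 at ZT0, 6.90, 7.03 and 7.15 at ZT6, 7.26, 7.24 and 7.20 at ZT12, and 8.21, 8.49 and 7.96 at ZT18 (probe set 1418687_at). Its 4 groups did not overlap, from ZT6 through ZT12 and ZT18 to ZT0, over a range of 1.89 log2 units (3.7-fold, SE 0.18, adjusted p = 3.39e-11). Fos, a subunit of AP-1, read 9.23, 9.18 and 9.12 at ZT0, 7.65, 7.54 and 8.14 at ZT6, 7.83, 7.94 and 7.76 at ZT12, and 8.89, 8.84 and 8.65 at ZT18. ZT0 was highest, ZT18 next, and the ZT6 and ZT12 groups overlapped each other below, with a range of 1.40 log2 units (2.64-fold, SE 0.16, adjusted p = 1.47e-09).

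Dusp1 had the same order of times as Arc. This phosphatase of MAP kinases, also a member of the glucocorticoid list, read 9.68, 9.69 and 9.67 at ZT0, 8.84, 8.49 and 8.79 at ZT6, 9.21, 9.14 and 9.08 at ZT12, and 9.41, 9.60 and 9.30 at ZT18. The order ZT6, ZT12, ZT18, ZT0 was without overlap, with a range of 0.97 log2 units (1.96-fold, SE 0.10, adjusted p = 3.88e-09). Nr4a1, a nuclear receptor, peaked at ZT0 with a range of 0.98 log2 units (1.97-fold, SE 0.13, adjusted p = 8.42e-07), and Egr2, a zinc finger factor, with 1.17 log2 units (2.25-fold, SE 0.18, adjusted p = 1.61e-06). Junb, Egr1, Egr4, Ier5 and Dusp6 were the other called members with a peak at ZT0. The difference between ZT0 and ZT18 did not pass the test of that pair in Arc (adjusted p = 0.206), Fos (0.758), Dusp1 (0.731) or Nr4a1 (0.773), although their means were higher at ZT0. The means at ZT18 and ZT0 were, in the order Arc, Fos, Dusp1 and Nr4a1, 8.22 and 8.92, 8.80 and 9.18, 9.44 and 9.68, and 9.45 and 9.76.

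Homer1, a scaffold of excitatory synapses with a short activity-induced form, had the smallest p of all probe sets. On probe set 1436387_at it read 8.88, 8.66 and 8.76 at ZT0, 8.31, 8.34 and 8.31 at ZT6, 7.21, 7.52 and 7.53 at ZT12, and 9.51, 9.24 and 9.50 at ZT18. The 4 groups did not overlap, from ZT12 through ZT6 and ZT0 to ZT18, over a range of 1.99 log2 units (3.98-fold, SE 0.11, adjusted p = 1.67e-18), the widest of any called probe set. Of its 6 probe sets 3 were called, and the brightest, 1437363_at, had a range of 0.33 (adjusted p = 0.00277), also with a peak at ZT18 and a trough at ZT12. Homer1 was lower at ZT12 than at ZT6 by limma's test of that pair (log2 difference -0.90, adjusted p = 1.06e-06). Fosl2, Egr3, Nr4a3, Npas4, Dusp4 and Trib1 were the other called members with a peak at ZT18. Without ZT18 replicate 2 the list had 16 called members, 11 of them with a peak at ZT0, and without ZT0 replicate 3 it also had 16, 12 with a peak at ZT0.

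The CRE core TGACG, bound by CREB, is in capitals in the 250 bases before the start of Fos and of Homer1, the latter for 1 of its 2 RefSeq windows (GRCm38.p6, 5′ to 3′). They are shown because the first peaked at ZT0 and the second at ZT18.
Fos (chr12:85473640-85473889, plus strand): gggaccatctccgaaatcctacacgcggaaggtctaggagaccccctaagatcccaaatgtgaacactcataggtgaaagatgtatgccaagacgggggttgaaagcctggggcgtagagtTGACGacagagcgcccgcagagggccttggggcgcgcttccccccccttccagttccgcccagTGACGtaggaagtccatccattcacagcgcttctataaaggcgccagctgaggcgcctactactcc
Homer1 (chr13:93303507-93303756, plus strand): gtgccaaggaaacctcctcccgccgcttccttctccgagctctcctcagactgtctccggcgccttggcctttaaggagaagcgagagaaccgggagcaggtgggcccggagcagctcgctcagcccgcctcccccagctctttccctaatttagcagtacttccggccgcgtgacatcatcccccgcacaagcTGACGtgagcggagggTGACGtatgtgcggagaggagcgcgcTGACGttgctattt
Fos held 2 such sites, 129 and 66 bases before the start, and Homer1 held 3, at 56, 40 and 14 bases.

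**Figure D3:**
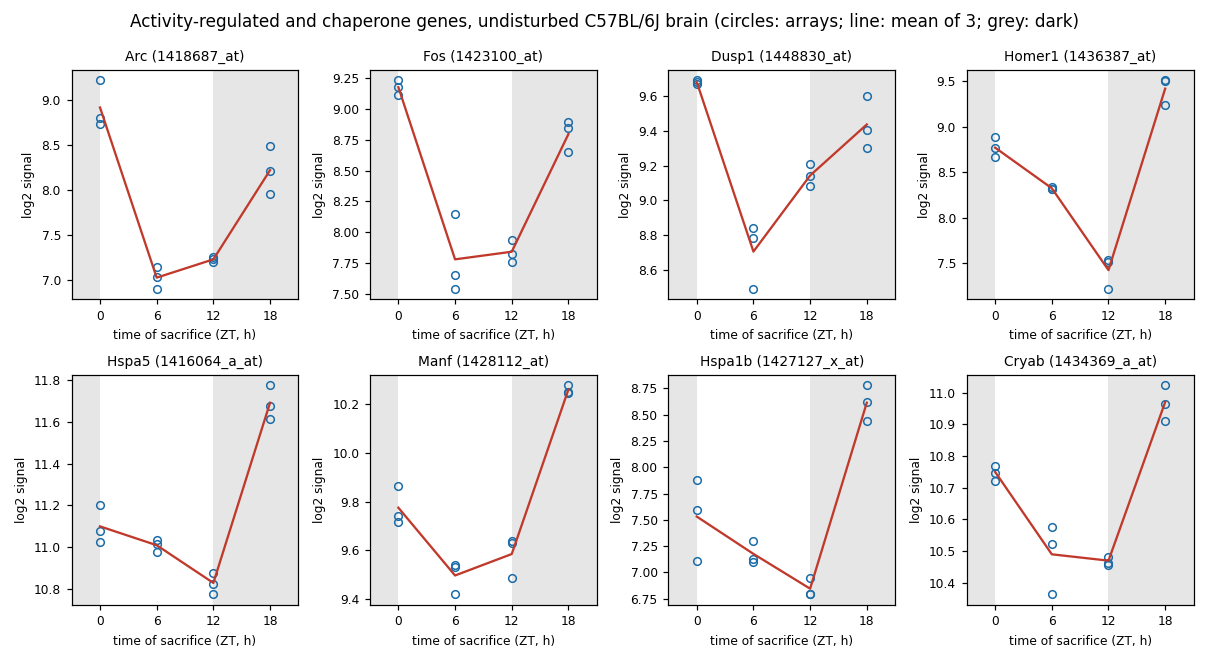
Log2 signal (vertical axis) against time of sacrifice (horizontal axis, ZT in hours, dark phase in grey) for 4 activity-regulated genes above and 4 chaperones below. Circles are the 3 arrays at each time and the line joins their means. Arc, Fos and Dusp1 were highest at ZT0, and Homer1 and the chaperones at ZT18.

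Genes of RNA processing that respond to temperature differed in their peak times. Of 13 measured 6 were called, beside 2.07% of all genes, 2 with a peak at ZT12, 2 at ZT18, 1 at ZT0 and 1 at ZT6, and the list's median range was 0.20. Cirbp, the cold-inducible RNA-binding protein, read 7.57, 7.78 and 7.54 at ZT0, 8.31, 8.18 and 8.16 at ZT6, 8.37, 8.23 and 8.25 at ZT12, and 7.70, 7.42 and 7.42 at ZT18 (probe set 1416332_at). The ZT6 and ZT12 arrays were above all arrays of ZT0 and ZT18, with a range of 0.77 log2 units (1.71-fold, SE 0.12, adjusted p = 1.6e-06). Hnrnpdl, a ribonucleoprotein, had the same order without overlap and a range of 0.32 (adjusted p = 6.93e-05). Tra2a, a splicing regulator, was highest at ZT18, then at ZT0, with a range of 0.46 (adjusted p = 2.43e-05). Clk1, a kinase of splicing factors, was lowest at ZT6 with 0.43 (adjusted p = 0.000108). Srsf5 and Srsf6 were called too, but not without ZT18 replicate 2.

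Of the called myelin and precursor genes, Opalin and Mag were lowest at ZT18 and Gpr17 was lowest at ZT6. Of 23 measured genes of myelination and oligodendrocyte precursors, 3 were called, beside 2.07% of all genes, and 14 had an unadjusted p under 0.05. Of all 45037 probe sets tested, 6284 had such an unadjusted p, a count over every probe set of a gene and not only the brightest. The list's median range was 0.22, against 0.15 for all genes. Opalin, a membrane protein of oligodendrocytes, read 8.98, 9.06 and 8.95 at ZT0, 9.10, 9.07 and 9.02 at ZT6, 9.07, 9.08 and 9.09 at ZT12, and 8.47, 8.36 and 8.59 at ZT18. Only ZT18 stood apart, below the rest, with a range of 0.61 log2 units (1.53-fold, SE 0.098, adjusted p = 3.61e-05). Mag, the myelin-associated glycoprotein, read 9.80, 9.78 and 9.73 at ZT0, 9.97, 10.17 and 9.95 at ZT6, 9.87, 9.88 and 9.88 at ZT12, and 9.69, 9.63 and 9.69 at ZT18, highest at ZT6 and lowest at ZT18 with no overlap of the 4 groups and a range of 0.36 log2 units (1.28-fold, SE 0.058, adjusted p = 0.000291). Gpr17, a receptor of maturing precursors, peaked at ZT0 and was lowest at ZT6 with 0.41 (adjusted p = 8.15e-06). Mbp, which encodes the myelin basic protein, ranged over 0.03 (adjusted p = 0.968).

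Genes of brain vessels had several courses. Of 9 measured endothelial markers 3 were called, and of 18 further vessel and barrier genes, chosen after the data were seen, 2 were, Abcg2 and Mfsd2a, beside 2.07% of all genes. Without ZT18 replicate 2 the latter count was 1, and Mfsd2a was not called. Cldn5, the tight junction protein of brain endothelium, read 9.14, 9.07 and 8.93 at ZT0, 9.05, 9.03 and 9.08 at ZT6, 8.35, 8.31 and 8.42 at ZT12, and 8.83, 8.87 and 8.88 at ZT18 (probe set 1417839_at). The ZT12 arrays were lowest, ZT18 next, and ZT0 and ZT6 overlapped above them, with a range of 0.70 log2 units (1.62-fold, SE 0.066, adjusted p = 1.87e-11). Kdr, the receptor of vascular growth factor, had the same order of means with overlap and a range of 0.51 (adjusted p = 0.00101). Slco1a4, an anion transporter of the barrier, was instead highest at ZT12 with 0.36 (adjusted p = 0.00775). Cd93, a further endothelial surface protein, followed Cldn5, read 5.32, 5.30 and 6.09 at ZT0, 5.53, 5.91 and 5.49 at ZT6, 4.81, 4.88 and 4.91 at ZT12, and 5.60, 5.29 and 5.02 at ZT18, and had a range of 0.78 log2 units (1.72-fold, SE 0.17, adjusted p = 0.0165), but its adjusted p was 0.172 without ZT12 replicate 1. The log2 of the summed signal of the 9 endothelial markers was 11.50 to 11.70 at ZT0, 11.67 to 11.74 at ZT6, 11.64 to 11.69 at ZT12 and 11.54 to 11.63 at ZT18, and its part in these results was not tested.

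Slc2a1 and Ppp1r3c were the called members of 27 genes of glucose, lactate and glycogen handling, 2 of 27 beside 2.07% of all genes, and 5 had an unadjusted p under 0.05. Over all 45037 probe sets tested, not only the brightest of each gene, 6284 had an unadjusted p under 0.05. Slc2a1, the glucose transporter of the barrier, read 9.81, 9.88 and 9.72 at ZT0, 9.93, 9.70 and 9.87 at ZT6, 10.17, 10.29 and 10.18 at ZT12, and 10.02, 10.25 and 10.02 at ZT18, with the ZT12 and ZT18 groups above ZT0 and ZT6 and a range of 0.41 log2 units (1.33-fold, SE 0.075, adjusted p = 0.000291). Ppp1r3c, which directs a phosphatase to glycogen, was lowest at ZT12 with 0.33 (adjusted p = 0.00147). Of 29 genes of cholesterol and fatty acid synthesis 2 were called and 9 had an unadjusted p under 0.05. The called ones were Lss (lanosterol synthase) with 0.52 (adjusted p = 0.00937) and Insig1, a brake on sterol synthesis, with 0.43 (adjusted p = 0.02), both highest at ZT12 and lowest at ZT18. Without ZT12 replicate 2 the adjusted p of Lss was 0.0609, and without ZT18 replicate 3 that of Insig1 was 0.163. The 2 lists had median ranges of 0.16, against 0.15 for all genes.

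Glucocorticoid-responsive genes had 6 called members of 27, beside 2.07% of all genes, with a median range of 0.33. Sgk1, a kinase induced by corticosterone, read 9.13, 9.22 and 8.88 at ZT0, 9.34, 9.05 and 9.15 at ZT6, 10.10, 9.98 and 10.14 at ZT12, and 9.59, 10.13 and 9.38 at ZT18. Its ZT12 and ZT18 arrays lay above those of ZT0 and ZT6, with a range of 1.00 log2 units (2-fold, SE 0.20, adjusted p = 0.00205). Nfkbia, the inhibitor of NF-kappa-B, peaked at ZT12 with 0.53 (adjusted p = 0.00475), and Tsc22d3 (GILZ) at ZT18 with 0.46 (adjusted p = 0.00366). Dusp1, Cdkn1a and Gjb6 were the others. The median range over all genes was 0.15. Without ZT18 replicate 2 the count was 4, and without ZT0 replicate 3 it was 5.

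**Figure D4:**
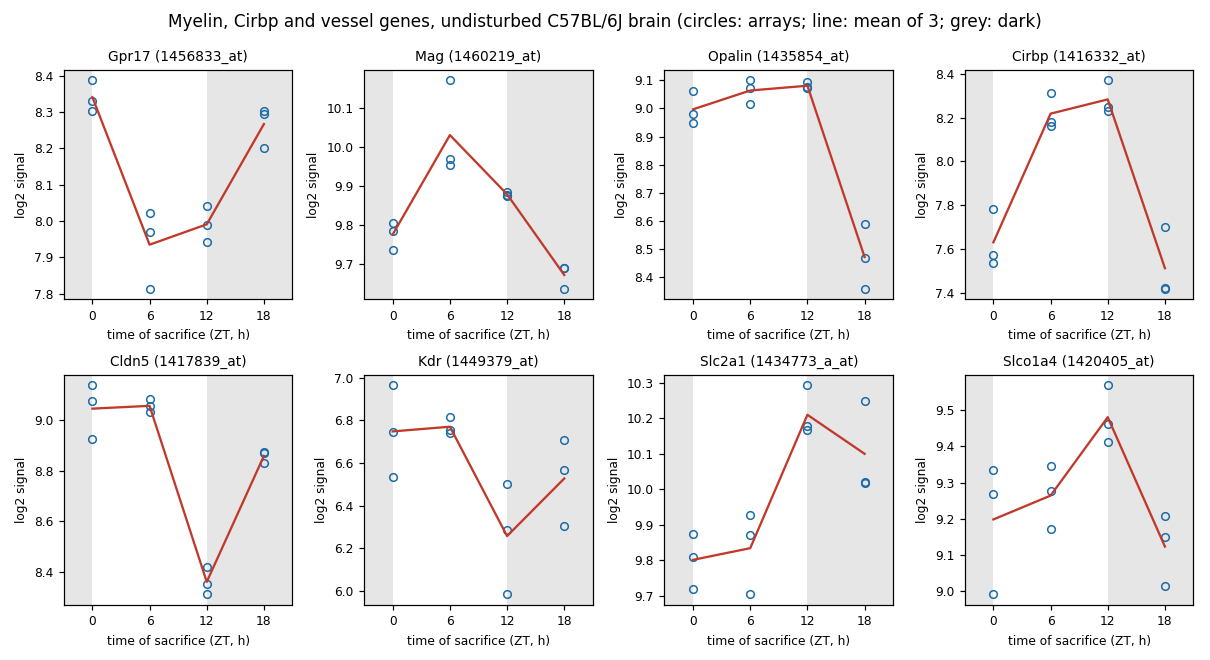
Log2 signal (vertical axis) against time of sacrifice (horizontal axis, ZT in hours, dark phase in grey) for 4 genes of the oligodendrocyte and RNA-processing lists above and 4 vessel genes below. Circles are the 3 arrays at each time and the line joins their means. Cirbp was highest at ZT6 and ZT12, Cldn5 lowest at ZT12, and Slc2a1 highest at ZT12.

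Several lists held no called member or 1, beside the background share of 2.07%. Lists of this size would often hold none or 1 at that share, so these counts say little about the pathways. None of the 22 measured ribosomal protein genes, 34 sleep-wake neuromodulator and neuropeptide genes or 29 potassium channel genes was called by limma's F test, and 1 of 32 respiratory chain genes was called as well. It was Cycs, the electron carrier cytochrome c, with a range of 0.22 (adjusted p = 0.0277) and an adjusted p of 0.329 without ZT6 replicate 3. At an unadjusted p under 0.05 there were 4 ribosomal protein genes, 1 neuromodulator gene and 4 potassium channel genes. There were also 6 respiratory chain genes and 5 glutamate and GABA receptor genes. Over all probe sets tested, not only the brightest of each gene, it was 6284 of 45037. Of 21 glutamate and GABA receptor genes 1 was called, Gabra2, highest at ZT18 with 0.36 (adjusted p = 0.00347). The median ranges of these lists were 0.11 for ribosomal proteins and for the respiratory chain, 0.14 for neuromodulators, 0.15 for receptors and 0.17 for potassium channels.

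Most lists of cell type markers held no called member, beside 2.07% of all genes. At that share lists this short would often hold none, so the lack of calls says little about these cell types. No marker of neurons (12 measured), astrocytes (10), microglia (10), choroid plexus (8), blood cells (5), striatum (6), hypothalamus (9) or olfactory bulb (6) was called. At an unadjusted p under 0.05 there were 4 neuronal, 2 astrocyte, 2 choroid plexus, 1 hypothalamic and 3 olfactory bulb markers, and none of microglia, blood cells or striatum. Over all probe sets tested, not only the brightest of each gene, it was 6284 of 45037. Besides the endothelial genes, Mag was called among 8 oligodendrocyte markers. Slc6a13, a GABA and taurine transporter, was called among 10 meningeal markers, lowest at ZT12 with a range of 0.47 (adjusted p = 0.000508). Cbln3, a cerebellin of granule cells, was called among 8 cerebellar markers with a range of 0.49 (adjusted p = 0.00754), but not without ZT18 replicate 2. These names were taken from the called members of each list and not by the rule for named genes. The log2 of the summed signal of the neuronal markers ran from 15.35 to 15.54 over the 12 arrays and that of the astrocyte markers from 14.91 to 15.00.

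The widest ranges at each peak also included genes outside the pathway lists. With a peak at ZT6, C920006O11Rik, a RIKEN transcript, had means of 5.11 at ZT0, 5.78 at ZT6, 5.74 at ZT12 and 4.91 at ZT18, a range of 0.86 (adjusted p = 1.73e-06). Others with that peak were Rc3h2, an RNA-binding ubiquitin ligase, with 0.66 (adjusted p = 0.00383), and Fundc2, a mitochondrial outer membrane protein, with 0.66 (adjusted p = 3.46e-06), all lowest at ZT18. With a peak at ZT12 there were Etnppl, an astrocyte enzyme that breaks down phosphoethanolamine, with 1.07 (adjusted p = 0.00017), and Rprd2, a regulator of RNA polymerase, with 0.89 (adjusted p = 6.51e-06). The means of Etnppl (4.56 to 5.635) and Rprd2 (4.265 to 5.152) were all below the median signal of the 12 arrays, 5.672. Those of C920006O11Rik and Fundc2 were below it at some of the times. At ZT18, Bpifb9b, Cbr2 and Stoml3 were called at ranges of 1.83, 1.13 and 1.13, and each rested on ZT18 replicate 2. Without it their adjusted p was 0.532, 0.812 and 0.88.

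Motifs were counted before the start of the called genes at each peak time. Of the 581 called genes 466 had a promoter sequence, as had 14452 genes of the array. Both strands of the 250 bases before the start were searched, and a gene counted if any of its RefSeq windows held the motif. The E-box CACGTG was found in 17.2% of genes with a peak at ZT0, 4.03% at ZT6, 14.4% at ZT12 and 11.7% at ZT18, against 8.73% of all genes. The CRE core TGACG was found in 43.8%, 24.2%, 26.7% and 34.4%, against 25.9%. The D-box (TTATGTAA or TTACGTAA) was found in 1 gene at ZT6 (0.671%), 2 at ZT12 (2.22%), 4 at ZT18 (2.45%) and none of 64 at ZT0, against 0.913%. The REV-ERB and ROR core TAGGTCA was found in 2 genes at ZT0 (3.12%), 2 at ZT6 (1.34%), 4 at ZT18 (2.45%) and none of 90 at ZT12, against 2.23%. The heat shock element, searched as 3 alternating GAA and TTC units with any 2 bases between neighbours, was found before none of the 163 genes with a peak at ZT18, against 0.484% of all genes. Matches of different motifs can share bases and were not separated. These shares describe letters in a window and were not tested.

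Few probe sets had a time course shown to differ between strains. The F test within strain called 1188 probe sets in undisturbed AKR/J (2.64%) and 1952 in DBA/2J (4.33%). The test of strain by time called 0 probe sets between C57BL/6J and AKR/J (0%), with 3566 at an unadjusted p under 0.05 and a smallest adjusted p of 0.107, so no course was shown to differ from AKR/J. Without ZT12 replicate 2 or without ZT12 replicate 3 of C57BL/6J it called 1. Between C57BL/6J and DBA/2J it called 6 probe sets of 5 genes (0.0133%), with 4158 at an unadjusted p under 0.05. Leaving out 1 array gave 4 (without ZT6 replicate 2 of C57BL/6J) to 20 (without its ZT18 replicate 3).

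Homer1 led the differences from DBA/2J. Its means at ZT0, ZT6, ZT12 and ZT18 were 8.77, 8.32, 7.42 and 9.42 in C57BL/6J and 9.26, 7.63, 7.08 and 9.69 in DBA/2J (strain by time, adjusted p = 3.43e-05), so its fall from ZT0 to ZT6 was the larger in DBA/2J. Trim9, a ubiquitin ligase of neurons, read 9.35, 9.32 and 9.24 at ZT0, 9.12, 9.27 and 9.20 at ZT6, 8.91, 8.93 and 8.92 at ZT12, and 9.38, 9.35 and 9.33 at ZT18. At the same times its means were 9.30, 9.20, 8.92 and 9.35 in C57BL/6J and 9.32, 8.69, 8.46 and 9.09 in DBA/2J (adjusted p = 0.000755), lower from ZT6 to ZT18 in DBA/2J. Sin3b, a scaffold of a corepressor complex, had means of 7.66, 7.68, 8.10 and 7.56 and 7.35, 8.14, 8.06 and 7.46 in these strains (adjusted p = 0.00569), so it was already high at ZT6 in DBA/2J and only at ZT12 in C57BL/6J.

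C920006O11Rik and AU022252 had lower means in DBA/2J at all 4 times. The p-values here are for the course (strain by time), and the difference in level was not tested. The means of C920006O11Rik were 5.11, 5.78, 5.74 and 4.91 in C57BL/6J and 3.84, 3.75, 3.59 and 3.83 in DBA/2J (adjusted p = 0.00128), the latter near the lowest signals of the arrays. Those of AU022252 were 6.64, 6.70, 6.55 and 6.81 and 5.77, 5.18, 5.51 and 5.60 (adjusted p = 0.0257). Leaving out 1 array raised the adjusted p of Sin3b to 0.0719 (without ZT6 replicate 2 of C57BL/6J) and that of AU022252 to 0.133 (without ZT6 replicate 2 of DBA/2J). It left the other 3 below 0.05. In a fit of only these 2 strains' undisturbed arrays, Homer1 alone of the 5 genes was called.

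Activity-regulated and chaperone genes were among those whose course differed between undisturbed and sleep-deprived C57BL/6J mice. The F test called 503 probe sets by time among the sleep-deprived arrays (1.12%). The test of condition by time called 169 probe sets of 138 genes (0.375%), 79 of them also called by time in the undisturbed mice. Leaving out 1 of the 24 arrays moved that count by over 1.5 times in 13 cases. It was 49 without ZT6 replicate 3 of the sleep-deprived mice, 761 without their ZT6 replicate 2, and 39 without the 6 arrays of the series that stand apart on the control probe sets. Homer1, Arc, Nr4a3, Cirbp and Tnfaip6 kept an adjusted p below 0.05 in each of these.

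Homer1, Arc and Nr4a3 spanned a smaller range of means after sleep deprivation. Homer1 means at ZT0, ZT6, ZT12 and ZT18 were 8.77, 8.32, 7.42 and 9.42 undisturbed and 9.96, 10.02, 9.73 and 9.79 after sleep deprivation (condition by time, adjusted p = 1.8e-11), a range of 1.99 against 0.28. All 4 sleep-deprived means were above the highest undisturbed mean. Arc means were 8.92, 7.03, 7.23 and 8.22 and 8.94, 8.63, 8.55 and 8.70 (adjusted p = 0.00189). Nr4a3, a nuclear receptor of the same list, had 8.66, 8.15, 8.12 and 8.68 and 8.86, 9.00, 8.84 and 8.85 (adjusted p = 0.00192, or 0.108 in a fit of only the groups compared). Cirbp means were 7.63, 8.22, 8.28 and 7.51 undisturbed and 6.98, 6.91, 7.48 and 7.37 after sleep deprivation (condition by time, adjusted p = 0.00167). In contrast to these genes, its sleep-deprived mean was the lower at each of the 4 times. The p is for the course, and the difference in level was not tested. Tnfaip6, a hyaluronan-binding protein, peaked at ZT12 undisturbed and at ZT0 after sleep deprivation, with means of 7.43, 7.17, 7.68 and 7.39 and 7.78, 7.64, 7.35 and 7.35 (adjusted p = 0.00192).

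Hspa5 rose from 10.83 at ZT12 to 11.69 at ZT18 undisturbed, while after sleep deprivation its means were 11.83, 11.68, 11.68 and 11.90 (adjusted p = 0.00192). Of the clock genes, Nr1d2 and Dbp were called in the test of condition by time, each on 1 probe set. Nr1d2 (1416959_at) had means of 7.57, 8.02, 7.95 and 7.98 undisturbed and 7.49, 7.58, 8.11 and 8.12 after sleep deprivation (adjusted p = 0.0363), and its brightest probe set had an adjusted p of 0.141. Dbp (1418174_at) had an adjusted p of 0.0489 and its probe set 1438211_s_at 0.868. Per2 (1417602_at) had 0.0945, Nr1d1 0.514 and Arntl 0.512. A p above the threshold does not show that these courses were alike.

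**Figure D5:**
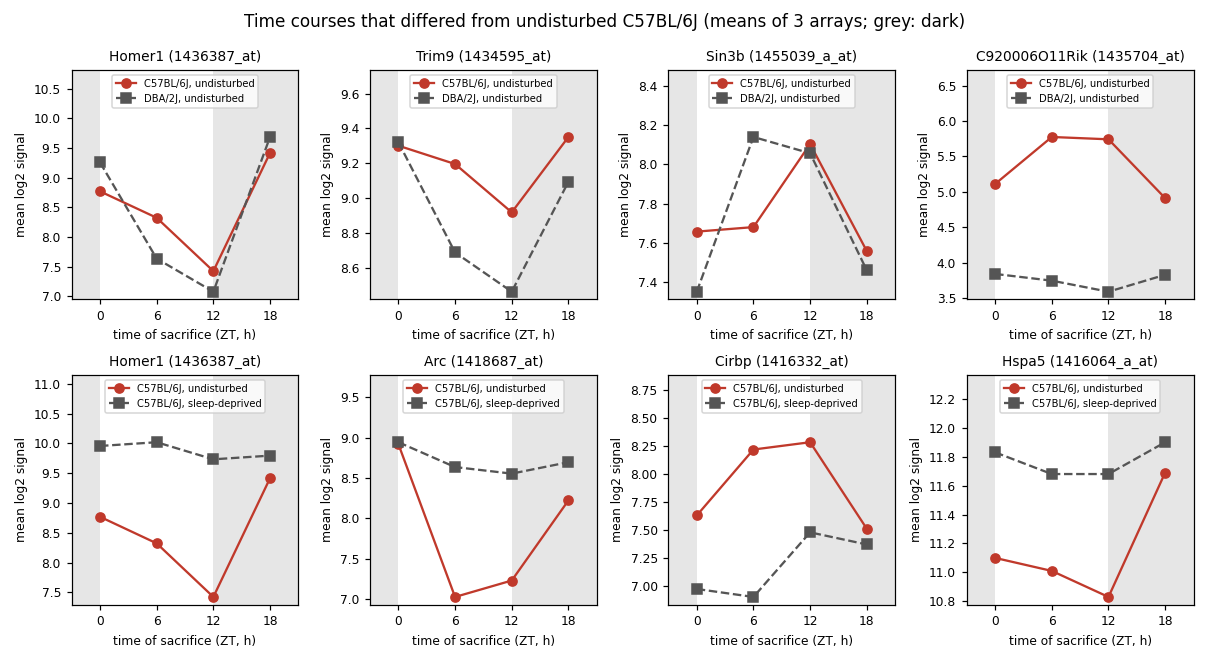
Mean log2 signal of 3 arrays (vertical axis) against time of sacrifice (horizontal axis, ZT in hours, dark phase in grey). Red circles are undisturbed C57BL/6J. Grey squares are undisturbed DBA/2J in the upper row and sleep-deprived C57BL/6J in the lower row. In the lower row Homer1 spanned 1.99 log2 units undisturbed and 0.28 after sleep deprivation.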

How the data were processed

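RNA of whole brain was hybridised to Affymetrix arrays. The authors deposited log2 values for 45101 probe sets on 71 arrays, which RMA produced per the submitters' processing notes; no source used here gives its version or settings. The 64 control probe sets were left out. Of the 45037 tested, 34945 had 1 gene symbol, 932 had several and 9160 had none, by GEO's platform annotation updated through Entrez identifiers. Symbols are given only where a probe set had 1.

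Using limma 3.58.1 (R 4.3.3), a linear model without covariates estimated a mean per group (24 groups) from the 71 arrays together. Time of day was tested with the moderated F test over the 4 group means of undisturbed C57BL/6J, each pair of times with its contrast, and strain by time and condition by time with an F test of the interaction. P-values were adjusted by the Benjamini-Hochberg method over all probe sets, with a threshold of 0.05. No filter on low values was used. The number of arrays, 3 at each time, limits the precision. The code was tested on simulated data.

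In lists a gene was represented by its brightest probe set. The genes named were the 10 of smallest p, the 5 of widest range at each peak time, every clock gene, up to 4 called members of each other list, and the 5 of smallest p in each time course difference. Other names were chosen after their values were seen. The members and lists were chosen with earlier results of these data known. Alternatives changed the scaling, the filter, the variance model, the arrays in the fit and the probe set used, and left out each array in turn. Promoters are from RefSeq (GRCm38.p6).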

Additional observations from a re-analysis of the deposited data

Results flagged for a closer look

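In limma's test of strain by time, 5 genes had a different time course in undisturbed C57BL/6J and DBA/2J mice. The adjusted p was 3.43e-05 for Homer1, with a range over the day of 1.99 log2 units in C57BL/6J and 2.61 in DBA/2J. It was 0.000755 for Trim9, with ranges of 0.43 and 0.86, and 0.00128 for C920006O11Rik, with 0.86 and 0.25. It was 0.00569 for Sin3b, with ranges of 0.55 and 0.79, and 0.0257 for AU022252, with 0.26 and 0.59.

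In limma's test of condition by time, the 5 genes of smallest p that differed between undisturbed and sleep-deprived C57BL/6J mice were Homer1 (adjusted p = 1.8e-11), Cirbp (0.00167), Arc (0.00189), Tnfaip6 (0.00192) and Nr4a3 (0.00192). Their ranges over the day, undisturbed and sleep-deprived, were 1.99 and 0.28 for Homer1 and 0.77 and 0.57 for Cirbp. They were 1.89 and 0.39 for Arc, 0.51 and 0.43 for Tnfaip6, and 0.56 and 0.17 for Nr4a3.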

How the results depend on the processing

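The count of 743 probe sets called by time of day stayed within 1.5 times of itself under quantile normalization (761), median centring (690), only probe sets above the median signal (1087), robust variances (727), a variance trend (881), a range of at least 0.25 (706), a 24 h cosine in place of 4 means (738, 574 of them shared) and without the 6 arrays apart on the control probe sets (1077). It was 1807 with array weights, 1279 with the control probe set batch as a block, 491 with 1 probe set per gene, where fewer are tested, and 177 with only the groups compared, where fewer arrays estimate the spread.

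In the order ZT6 against ZT0, ZT12 against ZT6, ZT18 against ZT12, ZT0 against ZT18, ZT12 against ZT0 and ZT18 against ZT6, the counts were 533, 327, 849, 59, 323 and 1417 with array weights, and 9, 16, 82, 0, 20 and 97 with only the groups compared. The 0 stands beside 30 in limma's fit of all arrays. With the batch block, ZT6 against ZT0 gave 304, ZT12 against ZT6 334, ZT18 against ZT12 587 and ZT18 against ZT6 1081. Without the 6 arrays, ZT12 against ZT6 gave 255, ZT0 against ZT18 19 and ZT18 against ZT6 959. A variance trend gave 145 for ZT12 against ZT6.

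The time course differences from AKR/J, DBA/2J and sleep-deprived mice numbered 1, 23 and 289 with a variance trend and 68, 174 and 2507 with array weights. With only the groups compared DBA/2J gave 2 and sleep deprivation 11. The batch block gave 20 for DBA/2J, and leaving out the 6 arrays gave 39 for sleep deprivation. The cause was not tested, save where named. The batch settings and the array lists behind them were chosen after seeing the data.

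Leaving out 1 array gave 479 to 766 by time of day, 70 to 142 for ZT6 against ZT0, 22 to 108 for ZT12 against ZT6, 208 to 229 for ZT18 against ZT12, 16 to 47 for ZT0 against ZT18, 86 to 174 for ZT12 against ZT0 and 186 to 425 for ZT18 against ZT6. It gave 0 to 1 for AKR/J, 4 to 20 for DBA/2J and 49 to 761 for sleep deprivation. Of the 59 named probe sets called by time, 37 kept their call under every alternative in which they were followed, and 22 lost it under 1 or more. They were not followed under the 24 h cosine, the range of at least 0.25 or 1 probe set per gene. Those below the median signal were absent from the fit of probe sets above it. Of the 15 named probe sets not called, Npas2, Tef and Leo1 gained a call. Fbxl21, not called, turned sign without ZT6 replicate 1 (-1.59e-05). With only the groups compared the adjusted p of the difference from DBA/2J was 0.104 for Trim9, 0.209 for C920006O11Rik, 0.101 for Sin3b and 0.239 for AU022252.

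The replicate numbers did not pair the arrays: same-numbered arrays of different times deviated together with a median correlation of 0.0218 (range -0.2 to 0.148), 1 of 18 pairs exceeded 0.1, and 4 of 12 arrays matched their own number best. With the replicate block 766 probe sets were called by time of day, and 179, 103, 394, 31, 144 and 604 in the 6 pairs of times. The 3 time course differences gave 0, 7 and 237.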
